A study of Mus musculus with 4 samples.

Results

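The *Gimap* genes encode the GTPases of the immunity-associated proteins, and their messages were compared between CD8αβ+ IELs and CD8αβ+ SPLs. The 8 genes considered were *Gimap1*, *Gimap3*, *Gimap4*, *Gimap5*, *Gimap6*, *Gimap7*, *Gimap8* and *Gimap9*, and their probes were found by gene name among the 41174 probes of the arrays that are not controls. A total of 10 probes carried one of these names, for 7 of the 8 genes and out of 27376 gene names on the array, and no probe carried the name *Gimap8*. *Gimap3*, *Gimap5* and *Gimap7* had more than 1 probe each. Every one of the 10 probes was well above background on all 4 arrays, none had an outlier mark of the scanner software, and all 10 were tested.

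CD8αβ+ IELs were intraepithelial lymphocytes of the small intestine and CD8αβ+ SPLs were splenocytes, both sorted as CD45+ CD3+ CD8α+ CD8β+ TCRβ+ cells from male wild-type mice of 8 to 12 weeks and not stimulated in culture. Each group had 2 samples, each pooled from several mice and hybridized to its own 1-color Agilent mouse array, so p-values measure only the spread between pools. IEL replicate 1 and SPL replicate 2 shared slide 1, and IEL replicate 2 and SPL replicate 1 shared slide 2. The labels name no deleted gene and no agent for either group. A level is the log2 of the background-subtracted intensity minus the 75th percentile of the array. That percentile was lowest for IEL replicate 1 (312 units), followed by IEL replicate 2 (435 units), SPL replicate 1 (479 units) and SPL replicate 2 (605 units).

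Across the 27902 tested probes, IEL replicate 2 had a Pearson's r of 0.992 with SPL replicate 1 and of 0.946 with IEL replicate 1. SPL replicate 1 likewise had a lower r with SPL replicate 2 (0.986) than with IEL replicate 2. The lowest values were those of IEL replicate 1 with SPL replicates 1 and 2 (0.927 and 0.911). IEL replicate 2 was thus nearer to an SPL array than to its own group, and it also carried markers of other splenic cells. The 6 erythroid markers had a summed level of 1.16 times the 75th percentile in IEL replicate 1 and of 75.02 times in IEL replicate 2, against 99.1 and 116 times in the SPL replicates. For the 7 B cell markers the sums were 3.62 and 20.5 in the IEL replicates and 26.2 and 19.99 in the SPL replicates, and for the 10 myeloid markers they were 48.5 and 68.4 against 82.2 and 88.2. The myeloid sum of IEL replicate 1 was nearly all *Lyz2*, and without that gene the other 9 markers had 1.15 and 40.4 against 49.8 and 51.3. The 12 epithelial markers had sums of 47.4 and 9.69 in the IEL replicates and of 5.01 and 2.46 in the SPL replicates. All 12 were higher on both IEL arrays, against 24.4% of all tested probes. The 5 endothelial markers, a cell type that also expresses some *Gimap* genes, had sums of 0.252 and 1.14 in the IEL replicates and of 1.34 and 1.503 in the SPL replicates. The 6 NK cell markers had 354 and 131 against 54.6 and 5.73, mostly *Gzma* on the IEL arrays and on SPL replicate 1. SPL replicate 1 also differed from SPL replicate 2 toward the IEL arrays, with 24185 against 1512 units of *Gzma*. Among the epithelial markers, *Cdh1* had 315 against 32.5 units and *Krt8* 121 against 24.3, while *Epcam* had 33.9 against 34.5. Without *Gzma* the other 5 NK cell markers had sums of 2.42 and 3.33 against 4.15 and 3.23. Of these, 3 of 5 were lower and 1 of 5 higher on both IEL arrays, against 24.6% and 24.4% of all tested probes. In IEL replicate 1, the B cell markers *Ms4a1* and *Ebf1* and 3 of 6 erythroid markers were not well above background. The part of these cells in the *Gimap* values was not tested. In RNA from sorted pools, fewer cells of a type and less RNA per cell cannot be told apart, and the values of *Gimap* genes are therefore given for all 4 arrays and for each slide.

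GIMAP proteins are GTP-binding proteins related to septins and dynamins, and several are anchored to intracellular membranes. They are expressed mainly in lymphocytes, and they are best known for the survival of peripheral T cells, since rodents that lack functional GIMAP5 become lymphopenic. GIMAP5 has been linked to GSK3β, GIMAP6 to the autophagy protein GABARAPL2, and mouse GIMAP3, GIMAP4 and GIMAP5 to proteins of the Bcl-2 family. The genes lie beside each other in a cluster on mouse chromosome 6.

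Each probe was 60 bases long, and the sequences are shown because a *Gimap* value here is the signal of that stretch of the message and of no other. The first 30 bases of each probe are given 5′ to 3′, as in the deposited scanner files, in the order of their positions along the cluster. Capitals mark bases that both *Gimap3* probes hold.
*Gimap9*, probe A_51_P377948: ggaggcagccctgaagtacatgatcatctt
*Gimap4*, probe A_52_P205001: ctactgtttgttcaacaacagagcctcagg
*Gimap6*, probe A_51_P407227: tacagtgactaattctgaacagtatatgtc
*Gimap7*, probe A_52_P684783: atggatgacaggaaatacttgcttgatgtg
*Gimap7*, probe A_51_P448147: accttcgtgaggaagcagagaagaacatat
*Gimap1*, probe A_51_P507509: gctcagagctttaatgattcacagtgcagt
*Gimap5*, probe A_52_P102931: ccggtacttaacaaggaagacaagaaagac
*Gimap5*, probe A_51_P176365: attaatttcactctcatttgattcccatgg
*Gimap3*, probe A_51_P516753: CTGCATTTTATTGTGGATTGGGATCACTCA
*Gimap3*, probe A_52_P374545: gtttaatgctCTGCATTTTATTGTGGATTG
The *Gimap3* probes shared a run of 50 bases and were thus close to a repeated measurement of 1 site. Probes of different *Gimap* genes shared no run longer than 9 bases, although the genes are related.

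On mm9, the build of the array's annotation, the probes spanned 87.3 kb of chromosome 6. The *Gimap9* probe lay at chr6:48627839-48627898, the *Gimap4* probe at chr6:48640866-48640925 and the *Gimap6* probe at chr6:48651798-48651857. The *Gimap7* probes lay at chr6:48668839-48668898 and chr6:48674271-48674330, and the *Gimap1* probe at chr6:48693409-48693468. The *Gimap5* probes lay at chr6:48697390-48697449 and chr6:48703501-48703560, and the *Gimap3* probes at chr6:48715024-48715083 and chr6:48715034-48715093. *Gimap6* and *Gimap3* were probed on the minus strand and the others on the plus strand. The annotation in the files gives no exon or untranslated region for these positions.

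No *Gimap* gene was detectably different between CD8αβ+ IELs and CD8αβ+ SPLs. Under limma with a Benjamini-Hochberg adjusted p of 0.05, 0 of 10 *Gimap* probes were called, against 0% of the 27902 tested probes, and the smallest adjusted p of any probe was 0.634. At an unadjusted p under 0.05, 0 of 10 *Gimap* probes were higher, against 4.63% of all tested probes, and 0 were lower, against 1.1%. The unpaired t-test of the study's statistics section, on the same values, called 817 probes at an unadjusted p under 0.05 and 0 after adjustment, and 0 *Gimap* probes under either. Both IEL arrays lay above both SPL arrays for 4 of 10 *Gimap* probes, against 24.4% of all tested probes, and both lay below for 0 of 10, against 24.6%. The other 6 probes had overlapping groups. With 2 samples per group, the smallest p of a two-sided exact permutation test is 0.333, so that test could not pass the threshold for any single gene.

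**Figure D1:**
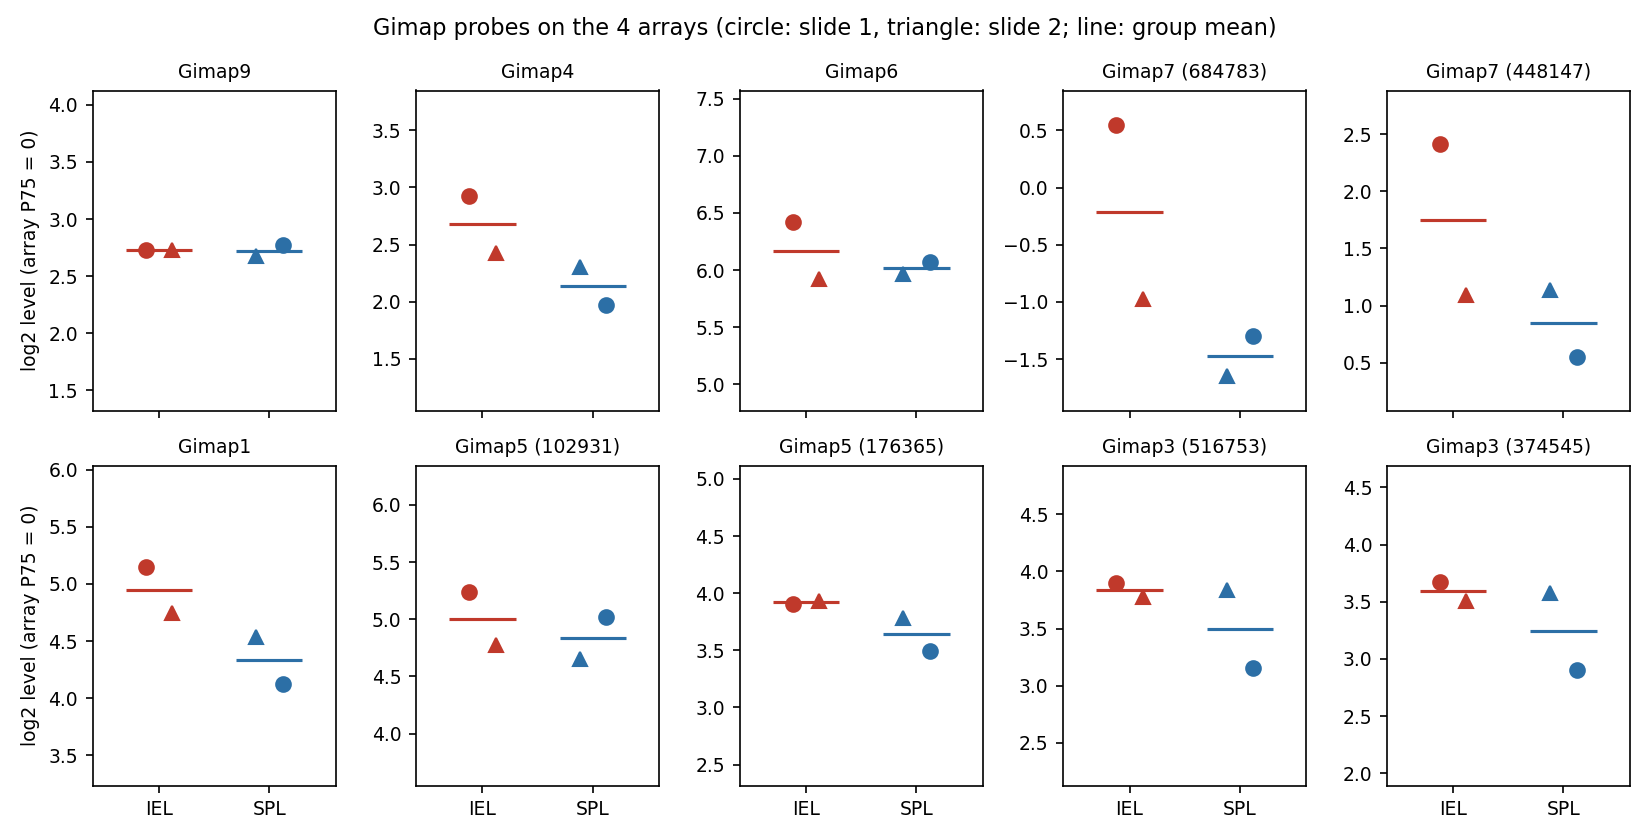
Log2 level of each *Gimap* probe on the 4 arrays (y axis, relative to the 75th percentile of the array), with 1 panel per probe in their order along the cluster, the last 6 digits of the probe name where a gene has more than 1 probe, and the same height of scale in every panel. Circles are arrays of slide 1, triangles arrays of slide 2 and lines group means; *Gimap9* sits between 2.67 and 2.77 on every array, while IEL replicate 1 is the highest array for both *Gimap7* probes.

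*Gimap5* is the member whose loss is known to deplete peripheral T cells. Its representative probe, A_52_P102931, had intensities of 11751 and 11875 units in IEL replicates 1 and 2 and of 12058 and 19635 units in SPL replicates 1 and 2. After scaling, the levels were 5.24 and 4.77 in the IEL replicates and 4.65 and 5.02 in the SPL replicates. The groups overlapped, since SPL replicate 2 lay between the IEL replicates. The log2 fold change was 0.17 (standard error 0.30, 95% interval -0.64 to 0.97, adjusted p 0.828 from limma). The other probe, A_51_P176365, lies 6111 bases away and had intensities of 4671, 6649, 6599 and 6830 units in the same order of arrays. Its log2 fold change was 0.28 (standard error 0.24), with both IEL arrays above both SPL arrays, so the *Gimap5* probes differed by 0.11 on the log2 scale in their fold change.

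*Gimap3* is the closest relative of *Gimap5* and has been linked to the same survival pathway. Probe A_51_P516753 had 4643 and 5958 units in IEL replicates 1 and 2 and 6860 and 5387 units in SPL replicates 1 and 2. The levels were 3.90, 3.78, 3.84 and 3.15 in that order, and SPL replicate 2 was the array that lay apart from the other 3. The log2 fold change was 0.34 (standard error 0.32, 95% interval -0.53 to 1.21, adjusted p 0.692 from limma). The overlapping probe A_52_P374545 gave 0.35 (standard error 0.32). Without SPL replicate 2 the fold change of A_51_P516753 was -0.0026 on the log2 scale.

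*Gimap1*, which peripheral B and T cells need for their survival, had 11061 and 11639 units in IEL replicates 1 and 2 and 11153 and 10538 units in SPL replicates 1 and 2. These intensities were close to each other on all 4 arrays, with the highest 1.104 times the lowest. On the scaled levels, which were 5.15 and 4.74 in the IEL replicates and 4.54 and 4.12 in the SPL replicates, both IEL arrays were above both SPL arrays. The log2 fold change was 0.61, or 1.53-fold (standard error 0.30, 95% interval -0.19 to 1.41, adjusted p 0.634 from limma), and the exact permutation p was 0.333.

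*Gimap4*, which has been described as a promoter of T cell death, showed the same separation of groups. Its intensities were 2371 and 2338 units in IEL replicates 1 and 2 and 2368 and 2366 units in SPL replicates 1 and 2. The highest was 1.01 times the lowest, against a median of 2.21 over all tested probes, so the difference between the levels came with the scaling to the 75th percentile. The levels were 2.93 and 2.43 in the IEL replicates and 2.30 and 1.97 in the SPL replicates, and the log2 fold change was 0.54, or 1.45-fold (standard error 0.30, 95% interval -0.27 to 1.35, adjusted p 0.634 from limma). Against the mean of *Cd3d*, *Cd3e* and *Cd3g*, which encode chains of the T cell receptor complex, the difference was 0.31 for *Gimap4* and 0.38 for *Gimap1*. Both genes thus lay higher in CD8αβ+ IELs under either reference, by a smaller amount under the second. *Cd3d*, *Cd3e* and *Cd3g* themselves had log2 fold changes of -0.27, 0.44 and 0.52, so the second reference averages genes of opposite direction.

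*Gimap7* encodes a GTPase that has been found to dimerize with other family members, and it had the largest fold change of the 7 genes. Probe A_51_P448147 gave 1656 and 925 units in IEL replicates 1 and 2 and 1056 and 887 units in SPL replicates 1 and 2. The levels were 2.41 and 1.09 in the IEL replicates and 1.14 and 0.55 in the SPL replicates, so IEL replicate 1 lay above all others while IEL replicate 2 lay below SPL replicate 1. The log2 fold change was 0.90, or 1.87-fold (standard error 0.54, 95% interval -0.54 to 2.35, adjusted p 0.634 from limma). The second probe, A_52_P684783, which lies 5432 bases away, gave 457 and 222 units in the IEL replicates and 153 and 246 units in the SPL replicates. Its log2 fold change was 1.26, or 2.40-fold (standard error 0.57, adjusted p 0.634 from limma), and here both IEL arrays were above both SPL arrays. The probes differed by 0.36 on the log2 scale in their fold change. The difference between the IEL replicates was 1.32 for the representative probe and 1.52 for the second, in each case more than the fold change of that probe.

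*Gimap6*, the member linked to autophagy, had 26659 and 26391 units in IEL replicates 1 and 2 and 29915 and 40611 units in SPL replicates 1 and 2. The levels of 6.42, 5.92, 5.96 and 6.07 in that order overlapped between groups, with both SPL arrays between the IEL arrays. The log2 fold change was 0.15 (standard error 0.28, 95% interval -0.60 to 0.91, adjusted p 0.830 from limma). *Gimap9*, a member of little-studied function, had 2067 and 2878 units in the IEL replicates and 3061 and 4136 units in the SPL replicates. After scaling, its levels were 2.73 and 2.73 in the IEL replicates and 2.67 and 2.77 in the SPL replicates, and these were the closest 4 values of any *Gimap* probe, with a range of 0.099 against a median range of 0.73 over all tested probes. Its log2 fold change was 0.0032 (standard error 0.23, 95% interval -0.60 to 0.61, adjusted p 0.997 from limma).

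**Figure D2:**
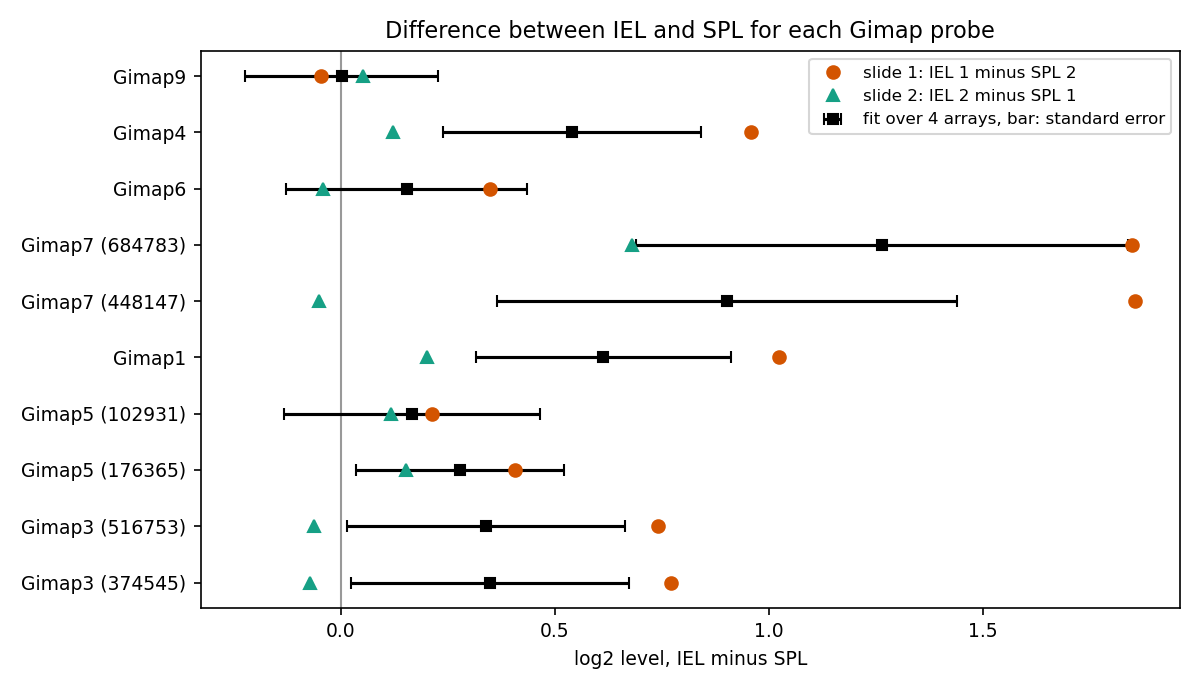
Log2 level in IEL minus SPL (x axis) for each *Gimap* probe (y axis), with the limma estimate and its standard error (squares and bars) and the difference on slide 1 (circles) and slide 2 (triangles). Only *Gimap9* has a slide 1 difference below 0, and the *Gimap7* probes reach 1.86 and 1.85 on slide 1.

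The *Gimap* differences were carried mostly by slide 1. The median log2 fold change of the 7 genes, with the brightest probe for each, was 0.34, against -0.00072 over all tested probes. On slide 1, where IEL replicate 1 stood against SPL replicate 2, the median was 0.74, against -0.0053 over all probes. On slide 2, where IEL replicate 2 stood against SPL replicate 1, it was 0.052, against 0.0017. The differences on slide 1 and slide 2 were 1.86 and -0.050 for *Gimap7*, 1.03 and 0.20 for *Gimap1*, 0.96 and 0.12 for *Gimap4*, and 0.74 and -0.062 for *Gimap3*. For *Gimap6*, *Gimap5* and *Gimap9* they were 0.35 and -0.040, 0.21 and 0.12, and -0.046 and 0.052. The second *Gimap7* probe had differences of 1.85 and 0.68, above 0 on both slides.

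On slide 1, 3 of 10 *Gimap* probes were at least 2-fold higher in CD8αβ+ IELs, against 11.8% of all tested probes, and these were the *Gimap1* probe and both *Gimap7* probes. At least 2-fold lower were 0 of 10, against 13.7%. On slide 2 the counts were 0 higher, against 2.46%, and 0 lower, against 0.731%. These counts compare single arrays and have no replicate check.

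Differences within a group were about as large as those between groups. Over the 7 genes, the median of IEL replicate 1 minus IEL replicate 2 was 0.46, and that of SPL replicate 1 minus SPL replicate 2 was 0.34. The median fold change between the groups, 0.34, was smaller than the first of these and close to the second. The residual standard deviation had a median of 0.30 for the *Gimap* genes and of 0.30 over all tested probes.

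Leaving out IEL replicate 2, the array that resembled the spleen, changed the call for *Gimap7* only. Without it, 2 of 10 *Gimap* probes were called higher, against 8.55% of all tested probes, and both were *Gimap7* probes. A_51_P448147 had a log2 fold change of 1.56 (adjusted p 0.0386 from limma) and A_52_P684783 one of 2.03 (adjusted p 0.0146 from limma). Both fits rest on a single IEL array whose variance was taken from the SPL pair. Among the other genes the smallest adjusted p in that fit was 0.112, for *Gimap4*, whose log2 fold change was 0.79. Without SPL replicate 1 in place of it, the log2 fold change of *Gimap7* was 1.196 on A_51_P448147, without SPL replicate 2 it was 0.61, and without IEL replicate 1 it was 0.24.

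**Figure D3:**
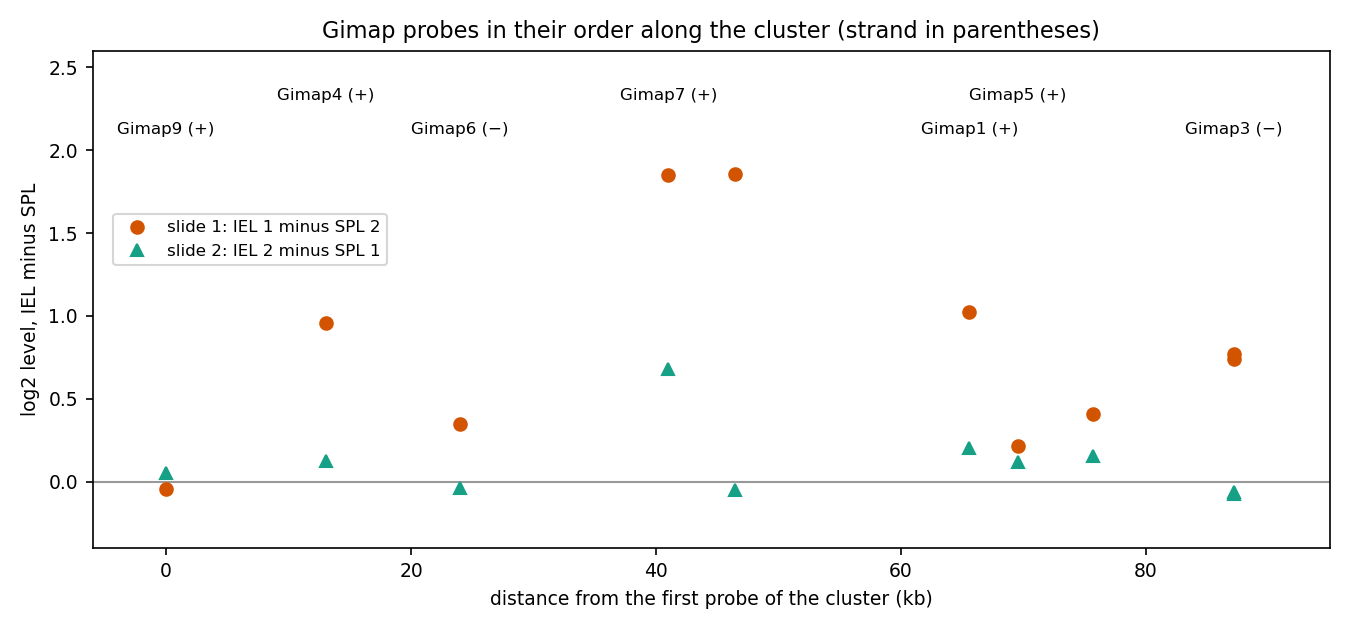
Log2 level in IEL minus SPL (y axis) against the distance in kb from the *Gimap9* probe (x axis), on slide 1 (circles) and slide 2 (triangles), with gene names and strands above. The *Gimap7* probes in the middle of the cluster are the highest on slide 1, at 1.85 and 1.86, and the neighbours at either end, *Gimap9* and *Gimap3*, lie at -0.046 and at 0.74 and 0.77.

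Neighbouring *Gimap* genes did not share 1 value. Along the cluster, *Gimap9* with 0.0032 stands next to *Gimap4* with 0.54, and *Gimap1* with 0.61 lies next to *Gimap5* with 0.17. *Gimap6* and *Gimap3*, on the minus strand, had log2 fold changes of 0.15 and 0.34, which lie within the range of the plus-strand genes. The standard errors of 0.23 to 0.54 belong to each gene's own difference between IEL and SPL, and not to a difference between genes. Whether neighbouring genes differ from each other was not tested.

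A list of genes that are not GTPases was drawn up as neighbours of the cluster, and 13 of 15 of those on the array were tested. It holds *Kcnh2*, *Nos3*, *Atg9b*, *Abcb8*, *Cdk5* and *Slc4a2*, whose positions in the mouse were not checked. The list can therefore not be read as bordering genes alone. The median log2 fold change of the 13 genes was 0.22, with 0 of 13 past the adjusted threshold of limma. Both IEL arrays lay above both SPL arrays for 5 of 13 (24.4% of all tested probes) and below for 2 of 13 (24.6%). The higher genes included *Nos3*, *Atg9b* and *Abcb8*, whose positions were not checked. The 2 lower genes were *Tmem176a* and *Tmem176b*, which encode related membrane proteins of myeloid cells and some T cells, with -1.40 and -1.38. The largest difference was that of *Aoc1*, an amine oxidase of the intestinal epithelium (adjusted p 0.634 from limma). It was not well above background on either SPL array. Its intensities were 75.3 and 11.3 units in IEL replicates 1 and 2 and 6.47 and 3.32 units in SPL replicates 1 and 2. The log2 differences were 5.46 on slide 1 and 0.94 on slide 2. With SPL levels set no lower than the dimmest probes well above background, the group means differed 5.75-fold, which is no lower limit for each array. The *Gimap* log2 fold changes, from 0.0032 to 0.90, lay between those of *Tmem176a* and *Aoc1*.

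The starts of the *Gimap* genes are shown because genes of 1 cluster may carry the same motifs. In the 250 bases before each RefSeq start (GRCm38.p6), the 8 genes had 9 windows, *Gimap8* having 2 that overlap. Letters typical of RUNX sites (TGTGGT on either strand) were in 3 of 9 windows, against 14% of all 32851 promoters, those of ETS sites (GGAAGT) in 2 of 9, against 19.7%, and those of FOXO sites (TGTTTAC) in 1 of 9, against 3.17%. The windows with the RUNX letters were those of *Gimap7*, *Gimap1* and *Gimap4*, given here 5′ to 3′ with the matched letters in capitals.
*Gimap7* promoter, chr6:48718371-48718620, plus strand: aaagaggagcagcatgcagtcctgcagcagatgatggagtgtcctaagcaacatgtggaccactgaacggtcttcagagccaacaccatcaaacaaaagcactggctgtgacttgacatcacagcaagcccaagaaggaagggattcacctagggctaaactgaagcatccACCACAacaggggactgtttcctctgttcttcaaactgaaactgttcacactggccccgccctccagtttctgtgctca
*Gimap1* promoter, chr6:48738797-48739046, plus strand: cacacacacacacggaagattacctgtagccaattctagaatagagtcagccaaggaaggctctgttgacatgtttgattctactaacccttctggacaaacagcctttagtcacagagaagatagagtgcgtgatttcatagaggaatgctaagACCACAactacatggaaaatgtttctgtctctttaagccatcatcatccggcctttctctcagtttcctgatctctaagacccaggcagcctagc
*Gimap4* promoter, chr6:48684328-48684577, plus strand: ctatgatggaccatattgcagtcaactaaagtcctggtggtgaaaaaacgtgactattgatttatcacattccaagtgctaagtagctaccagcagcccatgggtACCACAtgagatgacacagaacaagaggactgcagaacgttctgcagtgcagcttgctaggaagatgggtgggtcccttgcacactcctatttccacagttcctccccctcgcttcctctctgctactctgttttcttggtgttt
The ETS letters were before *Gimap5* and *Gimap6*, and the FOXO letters before *Gimap3*. *Gimap7*, *Gimap1* and *Gimap4* also had the highest fold changes of the 7 genes, but with 7 genes, no call and motifs chosen when the values were known, this is a description of letters and shows no binding.

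**Figure D4:**
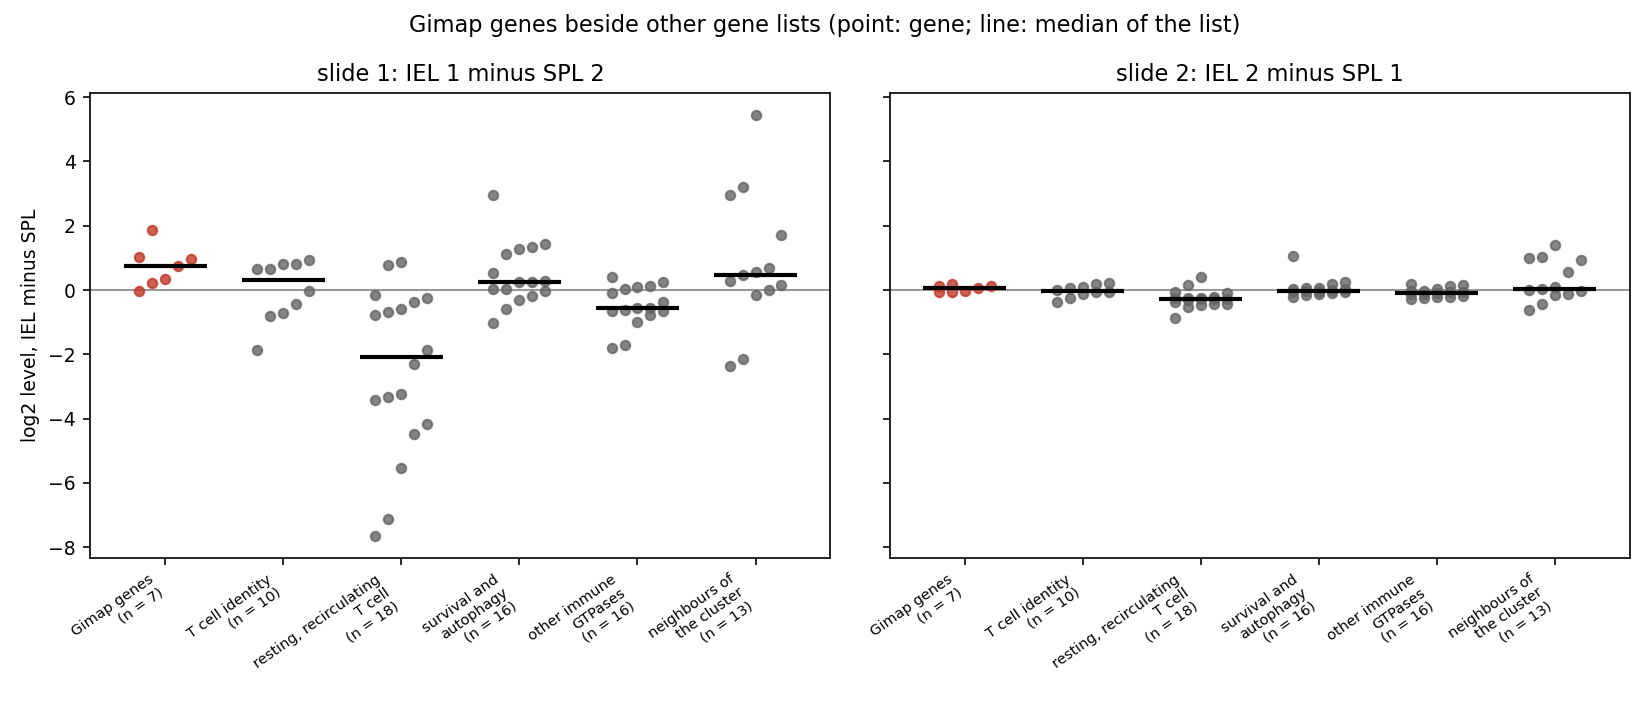
Log2 level in IEL minus SPL (y axis) on slide 1 (left) and slide 2 (right) for the 7 *Gimap* genes and 5 other lists of genes (x axis), with a point for each gene and a line at the median of each list. On slide 1 the *Gimap* genes lie between -0.046 and 1.86 while the resting and recirculating T cell list reaches -7.67, and on slide 2 the medians of all 6 lists lie between -0.27 and 0.052. The list labelled as neighbours of the cluster holds genes whose positions were not checked.

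The *Gimap* genes are known from resting, recirculating lymphocytes, and they were set beside 18 other genes of that state. Their median log2 fold change was -1.22, and 0 passed the adjusted threshold of limma. On both IEL arrays 14 of 18 were lower, against 24.6% of all tested probes, and 0 were higher, against 24.4%. *Dapl1*, a gene of naive T cells, had the lowest value (-4.00) and *Foxo1*, a transcription factor of naive T cells, the highest (0.35). *S1pr1*, the receptor that lets T cells leave lymphoid organs, had 228 units in IEL replicate 1 and 9797 units in IEL replicate 2, against 12896 and 20407 units in the SPL replicates. The median of this list was -2.08 on slide 1 and -0.27 on slide 2, where the *Gimap* medians were 0.74 and 0.052. *Il7r*, the receptor chain for the survival cytokine IL-7, had -0.42, and *Klf2*, a transcription factor that keeps T cells recirculating, had 0.083, with overlapping groups. On the array of IEL replicate 1, then, *Gimap* levels were above those of SPL replicate 2 for 6 of 7 genes, all but *Gimap9*. Over all tested probes the median difference on slide 1 was close to 0, at -0.0053. *S1pr1*, the lymphoid homing receptor *Ccr7* and the transcription factor *Lef1*, chosen after their values were seen, had log2 differences of -5.53, -4.19 and -4.47. Not all genes of the list were low there, since *Tob1* and *Foxo1* had 0.88 and 0.79 and *Klf2* had -0.24. This is a contrast of single arrays with no test.

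The identity of the cells was read from 10 genes of T cells. *Cd3e*, *Cd8a* and *Cd8b1* had log2 fold changes of 0.44, 0.37 and -0.39, and all were well above background on every array. The list had a median of 0.19, with 4 of 10 higher and 4 of 10 lower on both IEL arrays (24.4% and 24.6% of all tested probes) and 0 past the adjusted threshold of limma, and it ran from -1.13 (*Cd2*, an adhesion receptor) to 0.52 (*Cd3g*). The median *Gimap* level minus the mean of the CD3 genes was -1.35 and -1.24 in the IEL replicates and -1.16 and -1.65 in the SPL replicates, so that the IEL values lay between the SPL values. Relative to the CD3 genes the differences were -0.062 for *Gimap5*, -0.075 for *Gimap6* and -0.23 for *Gimap9*, each below 0, and 0.11, 0.31, 0.38 and 0.67 for *Gimap3*, *Gimap4*, *Gimap1* and *Gimap7*. The median over all tested probes was -0.23 under this reference.

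Genes of survival and autophagy, among them partners of GIMAP proteins, gave no call. Over the 16 genes the log2 fold change had a median of 0.075, with 4 of 16 higher and 4 of 16 lower on both IEL arrays, close to the 24.4% and 24.6% of all tested probes, and 0 past the adjusted threshold of limma. *Gsk3b*, which encodes the kinase linked to GIMAP5, had 0.60, *Bcl2*, an inhibitor of apoptosis, had 0.12, and *Gabarapl2*, the partner of GIMAP6, had 0.14. The list ran from -0.58 (*Bad*, a promoter of apoptosis) to 2.02 (*Gabarapl1*, an autophagy gene related to *Gabarapl2*). *Gabarapl1* had 24771 and 9613 units in the IEL replicates and 5055 and 6130 units in the SPL replicates, with differences of 2.97 on slide 1 and 1.07 on slide 2.

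Other GTPases of immune cells were compared in the same way. The 16 tested members, mostly interferon-inducible guanylate-binding proteins and immunity-related GTPases, lay at a median of -0.30 on the log2 scale, with 2 of 16 higher and 5 of 16 lower on both IEL arrays (24.4% and 24.6% of all tested probes) and 0 past the adjusted threshold of limma. They ran from -1.03 (*Iigp1*) to 0.28 (*Irgm2*), both of which encode GTPases that act on intracellular pathogens. No *Gimap* gene had a value below 0, although *Gimap9* did under 6 of 7 other scalings, background corrections or processed values.

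The genes whose pattern over the 4 arrays was most like the median *Gimap* pattern were found by the distance between levels centred on each probe's mean. The centred *Gimap* median was 0.32 and 0.00097 in IEL replicates 1 and 2 and -0.10 and -0.44 in SPL replicates 1 and 2, and IEL replicate 2 lay nearer to SPL replicate 1 than to IEL replicate 1. The 10 nearest genes, at distances from 0.109 to 0.115, were *Dis3l2*, *Lcorl*, *Man1c1*, *Pea15a*, *Tmem194b*, *Med20*, *Senp1*, *Mapre3*, *Kdm4a* and *E430025E21Rik*. They are nearest over only 4 arrays, and the *Gimap* genes themselves lay farther from their own median. *Gimap4* was at 0.197 and *Gimap1* at 0.226, with 1.43% and 2.30% of all tested probes as near or nearer, while *Gimap7* was at 0.872, with 57.5% as near or nearer. Many genes outside the family were thus nearer to the *Gimap* median than most of its own members.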

How the data were processed

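The 4 samples, which the labels divide into CD8αβ+ IELs and CD8αβ+ SPLs with 2 each, were each hybridized to 1 Agilent array. The authors deposited scanner files with background-subtracted intensity values, which per the file headers were made by Feature Extraction 10.7.3.1 (10.7.1.1 in the submitters' processing notes) and are not normalized between arrays, together with log2 values of the same arrays, used as an alternative. The study's methods name PrimeView chips, whereas the files are of Agilent arrays.

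The log2 intensity minus the array's 75th percentile over 43379 spots that are not controls was used. Outlier-marked spots were dropped before the spots of each of 41174 probes were averaged. The share of spots well above background was 63.7% to 69.8% and 0 spots were saturated. The negative controls had a mean of 20.6 units on SPL replicate 2 and of 1.53 to 1.76 units on the other arrays. Having 4 arrays limits the precision. Tests covered the 27902 probes that were measured on all arrays and stood well above background on both arrays of 1 group or more. limma 3.58.1 in R 4.3.3 was used without a block, two-sided, with Benjamini-Hochberg adjustment across these probes and a threshold of 0.05. The model was also run on simulated data, with shifts larger than any *Gimap* fold change. That run does not tell whether differences of the size of the *Gimap* ones would be found.

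All *Gimap* probes were named. The brightest tested probe stood for a gene with more than 1 (the representative probe). Of other genes, the 10 most alike in pattern were named, as were the extremes and preset members of the lists. The members and lists were chosen with earlier results of these data known. RefSeq promoters are of GRCm38.p6 and the probe positions of mm9. Alternatives were other scalings, background corrections, filters, tests, blocks, probe rules and thresholds, and each sample left out.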

Additional observations from a re-analysis of the deposited data

How the results depend on the processing

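The median log2 fold change of the 7 *Gimap* genes (0.34) was above 0 under every alternative run, from 0.052 within slide 2 to 0.74 within slide 1. With normexp background correction it was 0.72, where the median over all tested probes was -0.38. The cause of these shifts was not tested. With a sample left out it ranged from 0.24 to 0.68. With the replicate block or the slide as a block it was 0.34, with 0 *Gimap* probes called; neither block changed a call. Arrays with the same replicate number had r = -0.025 across probes between their deviations from the group means. With 2 arrays per group, arrays of the same slide give 0.025, the same value with its sign changed. This value therefore cannot show whether arrays with the same number were paired. Leaving out a sample gave 0 to 2 *Gimap* probes past the threshold, 0 to 2387 probes higher and 0 to 3063 probes lower, and the highest counts in each case were without IEL replicate 2, where 1 IEL array is assumed to vary like the SPL pair. The representative *Gimap7* probe had log2 fold changes from 0.24 to 1.56 with a sample left out. For the second *Gimap7* probe they ran from 0.50 to 2.03.

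*Gimap9* was below 0 with quantile normalization (-0.051), scaling by the median (-0.053), scaling by probes well above background on all arrays (-0.0037), scaling by the CD3 genes (-0.23), normexp fitted without spots far below background (-0.017), the authors' values (-0.061) and within slide 1 (-0.046). With scaling by the CD3 genes, *Gimap5* was -0.062 and *Gimap6* -0.075. Within slide 2, *Gimap3* was -0.062, *Gimap6* -0.040 and *Gimap7* -0.050. With a sample left out, *Gimap3* ranged from -0.0026 to 0.68, *Gimap5* from -0.065 to 0.40, *Gimap6* from -0.093 to 0.40 and *Gimap9* from -0.046 to 0.053. *Gimap1* and *Gimap4* were above 0 under every alternative run. With 2 arrays per group, the intervals of single genes span about 1 log2 unit or more, and differences within them were not detectable.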
